A study of Mus musculus with 5 samples.

Results

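Interstitial matrix genes encode the hydrated network between mesenchymal cells, and 10 of them were examined in the mouse pharyngeal arches at stage E10.5. The genes were Vcan, Fn1, Sparc, Has2, Hapln1, Tnc, Fbn1, Fbn2, Dcn and Fbln2. Every probe set (a group of array probes read as 1 signal) annotated to exactly 1 of these genes was kept. This gave 16 probe sets of 9 genes, out of 22626 probe sets and 12393 genes in all. Fbn1 had no probe set named to it in the annotation used and is not analysed here. Of the 9 genes, 5 had 2 or 3 probe sets and 4 had 1.

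The matrix of embryonic mesenchyme is rich in hyaluronan, a sugar polymer made at the cell surface. Versican, the product of Vcan, binds hyaluronan, link proteins such as Hapln1 clamp the pair together, and fibronectin gives migrating cells a substrate. In the arches and the outflow tract, neural crest and heart progenitor cells move through this matrix, and the endocardial cushions of the heart are filled with it.

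The tissue came from wild-type embryos as 5 separate isolates, the samples of 1 group, and there was no second condition to compare. The mice were of strain 129P2/OlaHsd after 2 generations of crossing to C57BL/6, and the piece was labelled both as arch tissue and as containing the second heart field. Litters were not named, so p-values refer to these 5 samples only. They come from limma, which draws the spread of each probe set toward a trend over many probe sets. Their size depends on that trend as well as on the 5 values. Amplification began from 10 ng of total RNA per sample, and the labelled product was read on Affymetrix Mouse Genome 430A arrays.

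Signals below are in the scaled units of the deposited table, and their median on an array ran from 28.1 to 32.2. A background level was set on each array from 217 probe sets of genes not expected in embryonic arches, such as olfactory receptors. It lay between 16.3 and 23.6. Detection means that log2 signal exceeded that level at an adjusted p below 0.05 in limma, and excess is the mean log2 difference from the level with its standard error. Among arch mesenchyme markers 12 of 15 measured genes were detected (80.0%, against 53.7% of all genes), led by Crabp1, Prrx1 and Pdgfra. Higher shares were found for markers of neurons (14 of 15, 93.3%) and of epithelium (10 of 12, 83.3%), so the piece was not mesenchyme alone. Among second heart field markers 4 of 13 were detected, or 30.8%, led by Isl1, Foxc2 and Foxc1. Of the undetected ones, Tbx1 and Nkx2-5 are named after their values were seen. The housekeeping controls showed stronger signal at the 3′ end than at the 5′ end, with ratios of 2.78 to 3.73 for Gapdh and 3.36 to 4.82 for beta-actin.

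Of the 16 probe sets, 12 were detected, or 75%, against 49.9% of all probe sets. They belonged to 7 of the 9 genes: Vcan, Fn1, Sparc, Has2, Tnc, Fbn2 and Dcn. Over all measured genes, 53.7% had a detected probe set. The median excess was 2.40 log2 units over the 16 probe sets and 0.51 over all probe sets. The genes were chosen with earlier results of these data known, so these shares and medians are given as a description. Hapln1 and Fbln2 were not detected by any of their probe sets. A higher level (78.2 to 122) arose when casein kinases and interferon receptors, kept out of the background genes here, were added to them. Against it 8 probe sets were detected (24.8% of all): those of Vcan, Sparc and Fbn2 and the brighter ones of Fn1 and Has2. Signals of different probe sets depend on how well each binds, so they do not rank the genes by amount of RNA.

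**Figure D1:**
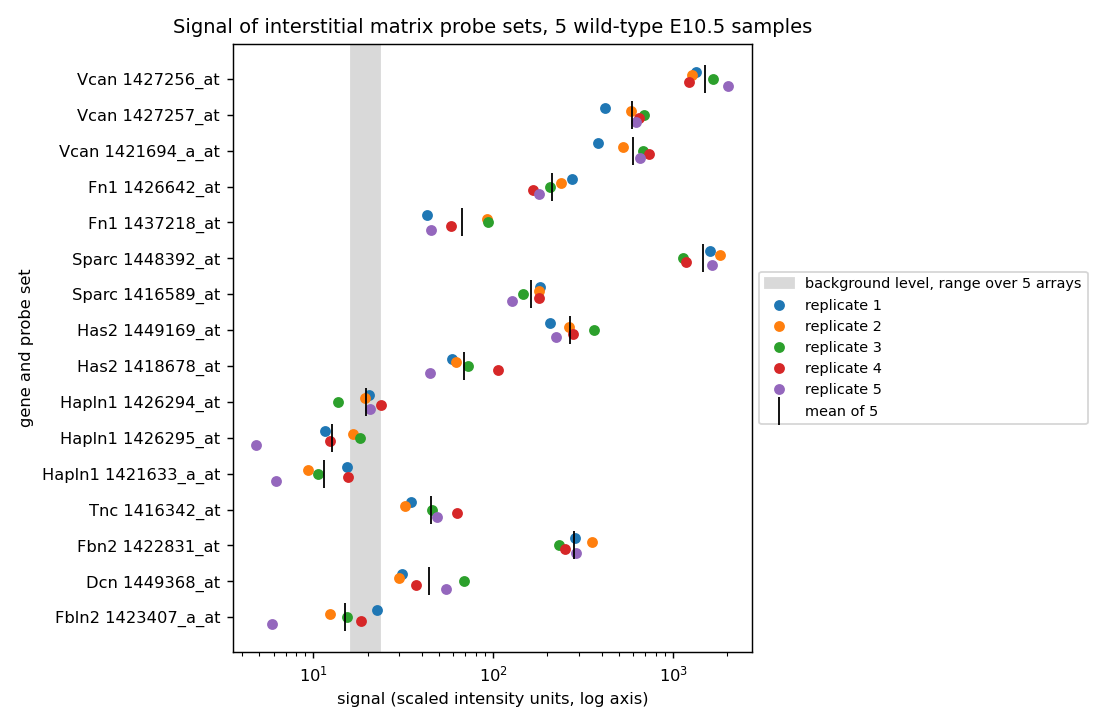
Signal of each of the 16 probe sets (vertical axis) on a log scale in scaled units (horizontal axis), with 1 dot for each of the 5 samples, a black bar at the mean and a grey band over the background levels of the arrays (16.3 to 23.6). All dots of Vcan, Fn1, Sparc, Has2, Tnc, Fbn2 and Dcn lie above the band, while those of Hapln1 and Fbln2 reach no higher than 23.8.

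**Figure D2:**
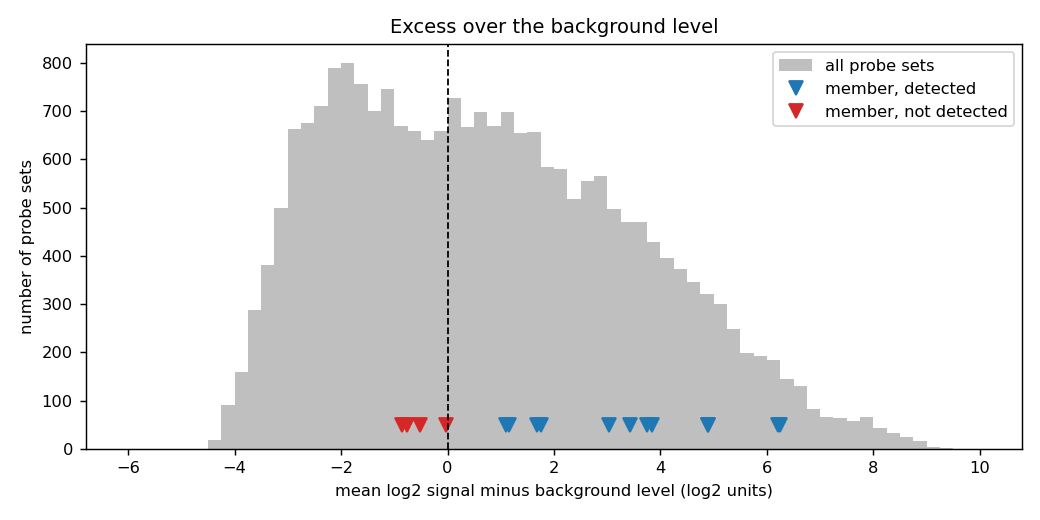
Histogram of the mean log2 signal minus background level (horizontal axis, log2 units) over all 22626 probe sets, with the number of probe sets on the vertical axis. Triangles mark the 12 detected and the 4 undetected interstitial matrix probe sets; the dashed line is the background level, and the detected ones run from 1.10 to 6.24 log2 units above it.

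Versican, a large chondroitin sulphate proteoglycan that holds water and binds hyaluronan, was detected by all of its 3 probe sets. Probe set 1427256_at gave 1338, 1270, 1673, 1221 and 2025 in replicates 1 to 5, an excess of 6.24 ± 0.14 (adjusted p = 3.43e-26, limma). Plain limma, without the trend and robust settings, gave an adjusted p of 3.61e-07 at the same excess. Replicate 5 was highest and replicate 4 lowest, and every sample lay far above the level.

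The other probe sets of Vcan gave another order of the samples. Probe set 1427257_at gave 418, 586, 686, 647 and 621, an excess of 4.90 ± 0.16. Probe set 1421694_a_at gave 382, 527, 678, 734 and 654, an excess of 4.89 ± 0.16. Both were lowest in replicate 1, and after centring on their own means they differed by a root mean square of 0.13 log2 units. Against 1427256_at the same measure was 0.31 and 0.37. Versican RNA is known to be spliced into several forms; which exons each probe set reads is not given in the sources used here.

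Has2 encodes the hyaluronan synthase that makes most of the polymer in the embryonic heart and mesenchyme. Its probe set 1449169_at gave 207, 265, 363, 277 and 222, an excess of 3.74 ± 0.18 (adjusted p = 2.52e-18, limma). Probe set 1418678_at gave 58.7, 62.2, 72.5, 107 and 44.6, an excess of 1.76 ± 0.20. All 5 samples were above the level by both, but the highest sample was replicate 3 by the first and replicate 4 by the second.

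Hapln1 encodes the cartilage link protein, which fastens versican and aggrecan to hyaluronan. Its brightest probe set, 1426294_at, gave 20.3, 19.3, 13.6, 23.8 and 20.7, which was above the level on 3 of the 5 arrays. The excess was -0.02 ± 0.29 (adjusted p = 0.940, limma), so the signal could not be told from background. Probe set 1426295_at gave 4.81 to 18.1 and 1421633_a_at 6.21 to 15.7, with 1 and 0 arrays above the level. With the level lowered to the 75th percentile of the background genes, 1426294_at was detected, with an excess of 0.96 (adjusted p = 0.00366, limma).

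Dcn encodes decorin, a small leucine-rich proteoglycan that binds collagen fibrils. Its probe set gave 31.3, 29.7, 68.4, 37.0 and 54.3, an excess of 1.10 ± 0.22 (adjusted p = 2.89e-05, limma). All samples were above the level, replicates 3 and 5 most so. At the 99th percentile of the background genes Dcn was no longer detected (excess 0.36, adjusted p = 0.123, limma).

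Fibronectin, the product of Fn1, is an adhesive glycoprotein that cells assemble into fibrils through integrins. Probe set 1426642_at gave 275, 239, 206, 167 and 180, an excess of 3.42 ± 0.19 (adjusted p = 9.06e-17, limma). Probe set 1437218_at gave 42.9, 92.7, 93.8, 58.4 and 45.1, an excess of 1.69 ± 0.22. Both detected Fn1 in every sample, but replicate 1 was highest by the first and lowest by the second, and their centred values differed by a root mean square of 0.55 log2 units. No direction between samples can therefore be given for Fn1 as a gene.

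Tnc encodes tenascin-C, a matricellular protein known to modulate the adhesion of cells to fibronectin. It gave 34.7, 32.3, 45.7, 62.6 and 48.4, an excess of 1.15 ± 0.20 (adjusted p = 4.94e-06, limma). Every sample was above the level and replicate 4 was highest. Like Dcn, Tnc was not detected against the 99th percentile (excess 0.42, adjusted p = 0.0688, limma).

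Sparc encodes osteonectin, a calcium-binding matricellular protein that binds collagen. Probe set 1448392_at gave 1596, 1816, 1134, 1175 and 1647, an excess of 6.21 ± 0.15 (adjusted p = 2.37e-25, limma). Probe set 1416589_at gave 182, 179, 146, 179 and 127, an excess of 3.04 ± 0.18. Replicate 3 lay below the mean by both, while replicate 5 was high by the first and lowest by the second.

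**Figure D3:**
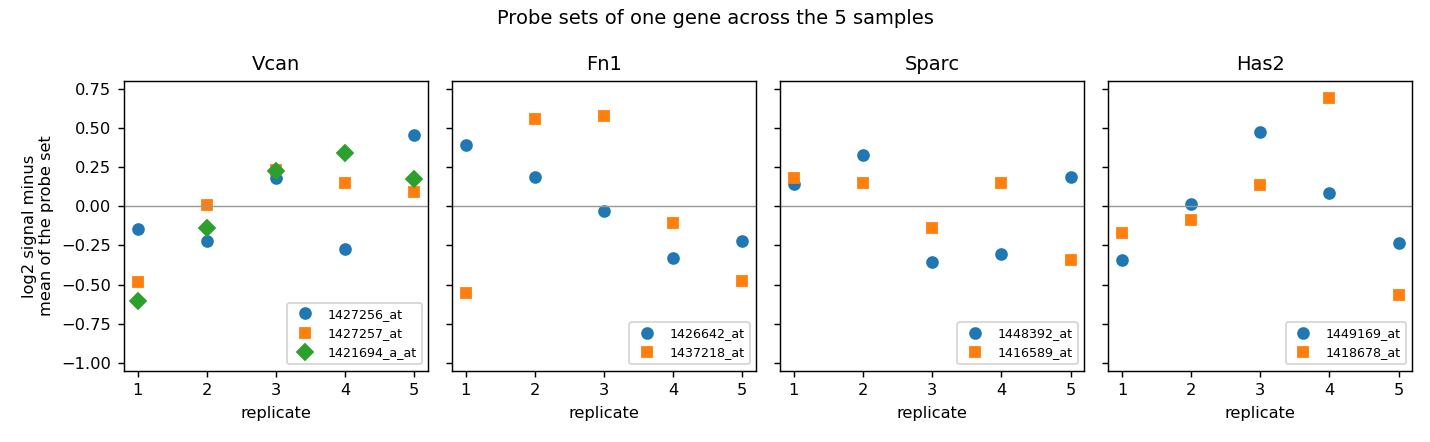
Log2 signal of each probe set minus its own mean (vertical axis, log2 units) in the 5 samples (horizontal axis) for Vcan, Fn1, Sparc and Has2, with 1 symbol per probe set. For Vcan 1427257_at and 1421694_a_at run close together, while for Fn1 the values in replicate 1 lie on opposite sides of the mean (0.39 and -0.55).

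Fibrillins build the microfibrils on which elastic fibres form and which hold latent TGF-beta in the matrix. Fbn2, the fibrillin known mainly from embryonic tissue, gave 286, 354, 231, 249 and 288, an excess of 3.83 ± 0.17 (adjusted p = 1.07e-18, limma). All samples lay well above the level, within 1.53-fold of each other.

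Fbln2 encodes fibulin-2, which binds fibronectin, versican and fibrillin and is known from the endocardial cushions. It gave 22.7, 12.3, 15.3, 18.5 and 5.91, and 1 of 5 arrays was above its level. The excess was -0.52 ± 0.39, and Fbln2 was not detected. A probe set without signal may bind poorly, so no absence of the transcript follows.

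Promoter sequences from RefSeq (GRCm38.p6), with a chromosome left out of the match, covered 5 of the 9 measured genes. The 120 bases before the annotated start are shown for a pair of genes with detected signal, Vcan and Sparc, and for the 2 without, Hapln1 and Fbln2. Each is written 5′ to 3′ on the gene's strand; capitals mark matches, on either strand, to 3 common promoter motifs, the TATA box, the CCAAT box and the GC box.
Vcan: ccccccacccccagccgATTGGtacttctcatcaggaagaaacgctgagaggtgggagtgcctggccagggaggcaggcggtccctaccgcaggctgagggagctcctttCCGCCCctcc
Sparc: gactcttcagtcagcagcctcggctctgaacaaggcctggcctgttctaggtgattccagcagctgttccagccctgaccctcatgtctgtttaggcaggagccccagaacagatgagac
Hapln1: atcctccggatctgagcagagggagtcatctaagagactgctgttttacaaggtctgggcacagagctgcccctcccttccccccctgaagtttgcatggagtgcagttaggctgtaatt
Fbln2: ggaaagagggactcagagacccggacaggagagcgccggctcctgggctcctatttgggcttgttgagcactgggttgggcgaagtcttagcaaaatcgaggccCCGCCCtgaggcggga
The windows are chr13:89742513-89742632 (minus strand) for Vcan, chr11:55420081-55420200 (minus) for Sparc, chr13:89540516-89540635 (plus) for Hapln1 and chr6:91212644-91212763 (plus) for Fbln2. The Vcan window held a CCAAT box and a GC box and the Fbln2 window a GC box, each as the reverse complement. The Sparc and Hapln1 windows held none of the 3 motifs, which says only that these letters are not there. The TATA box was searched as TATAAA, which 6.34% of 32851 promoter windows of the same length held on either strand. The CCAAT box was searched by the letters of its name and was held by 21.3% of those windows. The GC box was searched as GGGCGG and was held by 26.5%. The GC content was 66.7% for Vcan, 56.7% for Sparc, 53.3% for Hapln1 and 62.5% for Fbln2, against a median of 54.2%. Each pair shown holds 1 window with a match and 1 without. The windows of Tnc, also detected but not shown, held none of the 3 motifs as spelled here. The window at chr4:64046937-64047056 (minus) holds the letters tatataag, which a search for TATAAA does not match. No lack of a TATA box follows for Tnc.

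The next question was whether these genes differed between the 5 samples more than genes of like signal. The variance of each probe set was set against limma's trend of variance on signal, over the 12726 probe sets with a mean above the level. Of the 12 interstitial matrix probe sets there, 0 passed (29 of all, or 0.228%), and 0 had an unadjusted p under 0.05 (5.32% of all). With separate prior degrees of freedom per probe set, the first form of this F test that was run, 0 of all probe sets passed. The lowest unadjusted p was 0.127, for 1437218_at of Fn1, whose variance was 2.25 times the trend. The variance was above the trend for 8 of the 12, with a median ratio to it of 1.40 against 0.891 over all 12726. Their median SD, not matched for signal, was 0.31 log2 units against 0.32 over all. Between the highest and the lowest sample signals differed from 1.44-fold (1416589_at of Sparc) to 2.39-fold (1418678_at of Has2).

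**Figure D4:**
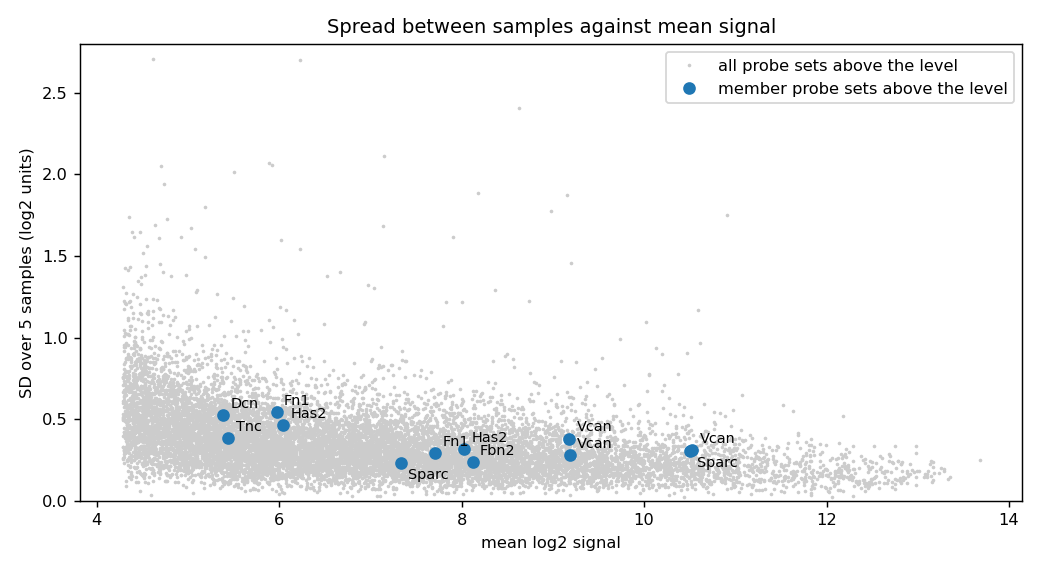
SD of log2 signal over the 5 samples (vertical axis, log2 units) against mean log2 signal (horizontal axis) for the 12726 probe sets above the level in grey and the 12 interstitial matrix probe sets in blue, named by gene. The blue points lie within the grey cloud at every signal.

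No sample held the lowest or the highest value of most probe sets. Of the 12 probe sets, 4 had their lowest value in replicate 1 and 2 in each other sample; of all probe sets above the level, 22.6%, 15.9%, 21.7%, 22.7% and 17.2% were lowest in replicates 1 to 5. The highest value fell in replicates 1 to 5 for 2, 2, 4, 3 and 1 probe sets, against 19.2%, 15.4%, 19.6%, 22.9% and 22.9% of all. Under quantile normalization and under median centring, 1 probe set was highest in replicate 1 and 4 in replicate 4, and under median centring 1 was lowest in replicate 4 and 3 in replicate 2. Their mean centred log2 signal ran from -0.19 in replicate 1 to 0.15 in replicate 3. Replicate 1 also had the highest Gapdh 3′ to 5′ ratio, 3.73, but its beta-actin ratio, 4.34, lay below those of replicates 3, 4 and 5; their part in these values was not tested. In whole tissue, fewer cells of a type and less RNA per cell cannot be told apart.

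Signals of marker genes for other cells also varied between the samples. The summed signal of 10 red cell markers, 5 of them detected, was lowest in replicate 4 (10517) and highest in replicate 5 (19109), the same samples as for 1427256_at of Vcan. The summed signal of 15 cartilage, tendon and somite markers, 6 of them detected, was highest in replicate 1 (1228) and lowest in replicate 4 (827), as for 1426642_at of Fn1. That order rested on Col9a1, a cartilage collagen gene named after its values were seen, with 569 in replicate 1 and 260 in replicate 4. Without it the sum of the other 14 markers was highest in replicate 2 (670.1) and lowest in replicate 3 (497). The red cell sum without its brightest gene, Hbb-y, was still lowest in replicate 4 (5628) and highest in replicate 5 (12695). No other marker list had the same lowest and highest samples as either of these probe sets. The second heart field sum came close for 1426642_at. It was highest in replicate 1 (2703) and lowest in replicate 5 (2084), with 2097 in replicate 4. The other probe sets of Vcan and Fn1 were lowest in replicate 1. The endothelial sum was lowest in replicate 1 (886) and highest in replicate 4 (1137), as for 1421694_a_at of Vcan. With 5 samples and several lists, such matches are easily found. Whether any of these cells contributed to the Vcan and Fn1 values was not tested.

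The probe sets most like the brightest one of Vcan over the 5 samples were those of Aprt, Dnajb4 and Wbp1l, with root mean square differences of 0.04, 0.05 and 0.05 log2 units among 6108 candidates. For 1426642_at of Fn1 they were those of Fam117b, Foxj3 and Nlk, with 0.05, 0.06 and 0.06 among 6598. With 5 samples and so many candidates, close matches are easily found, and these are given as a description.

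The partners of the interstitial matrix genes were taken from 6 lists, which were also chosen with earlier results of these data known. Among 29 measured genes of hyaluronan and proteoglycan biology, 10 were detected, or 34.5% against 53.7% of all genes. At the 75th percentile of the background genes it was 16. That lower level detected 59.5% of all probe sets, against 49.9% at the level used. Ugdh, which makes the UDP-glucuronate used for hyaluronan and chondroitin sulphate, gave 706 ± 135 (SD, n = 5; excess 5.15 ± 0.17). Cemip2, a cell surface protein linked to hyaluronan breakdown, gave 298 ± 66.4, and Hmmr, a hyaluronan-binding protein of dividing cells, 255.5 ± 15.6. The other hyaluronan synthases, Has1 (7.35 ± 6.65) and Has3 (12.1 ± 5.76), were not detected, so among the 3 synthase genes Has2 alone was; Has1 and Has3 are named after their values were seen. Not detected either were the aggrecan gene Acan (13.97 ± 5.81), Aspn and Bcan.

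Cd44, the main hyaluronan receptor of the cell surface and also chosen after its values were seen, was not detected as a group mean. It gave 25.5, 38.0, 46.5 and 29.7 in replicates 2 to 5, each above the level of its array, and 0.856 in replicate 1. The excess was -0.22 ± 0.81, with the low value of replicate 1 raised to the floor of 1.

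Microfibril and elastic fibre genes gave 8 of 19 detected (42.1%). Ltbp1, which tethers latent TGF-beta to fibrillin and fibronectin, gave 256 ± 29.7. The microfibril genes Mfap3 and Mfap2 gave 231 ± 41.7 and 174 ± 11.4. Elastin, Eln (11.5 ± 6.87), was not detected, nor were Emilin1 (15.2 ± 8.21) and Fbln5 (21.8 ± 8.71). The fibulin gene Fbln1, named after its values were seen, was detected with 63.97 ± 15.7, unlike Fbln2.

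Matricellular genes gave 11 of 25 (44%), with Fstl1 (908 ± 131), Tgfbi (327 ± 85.8) and Ccn2 (271 ± 72.3) in front by excess, and Ccn3, Ccn5 and Comp undetected. Fstl1 is a secreted glycoprotein of the Sparc family, Tgfbi encodes an integrin-binding protein and Ccn2 connective tissue growth factor. Matrix receptors and adhesion genes gave 17 of 27 (63.0%), with vinculin, Vcl (1473 ± 88.2), syndecan-1, Sdc1 (1297 ± 132), and the integrin subunit Itgav (834 ± 209) in front. The subunits of the classical fibronectin receptor, Itgb1 (143 ± 37.8) and Itga5 (32.8 ± 15.9), were detected too, Itga5 narrowly (adjusted p = 0.0489, limma); both are named after their values were seen. Itga2, Itga3 and Itga7 were not detected.

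Matrix proteases and their inhibitors gave 12 of 23 (52.2%), led by the convertase gene Furin (203 ± 40.4), the inhibitor gene Timp3 (181 ± 38.1) and the gelatinase gene Mmp2 (157 ± 38.6). Of the proteases known to cut versican, Adamts4 (101 ± 22.5), Adamts15 (62.2 ± 5.40) and Adamts1 (40.4 ± 8.80) were detected, all named after their values were seen, while Adamts5 (19.9 ± 3.49) was not. Adamts8 (9.62 ± 7.31) and Htra1 were not detected either. At the 99th percentile of the background genes 7 genes of this list were detected, where 41.7% of all probe sets were. Collagens and their processing enzymes gave 12 of 21 (57.1%), among them P4hb (2115 ± 169), a subunit of prolyl hydroxylase, Col3a1 (851 ± 91.8) and the collagen chaperone gene Serpinh1 (526 ± 151). Col12a1, Col14a1 and Col5a3 were not detected.

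**Figure D5:**
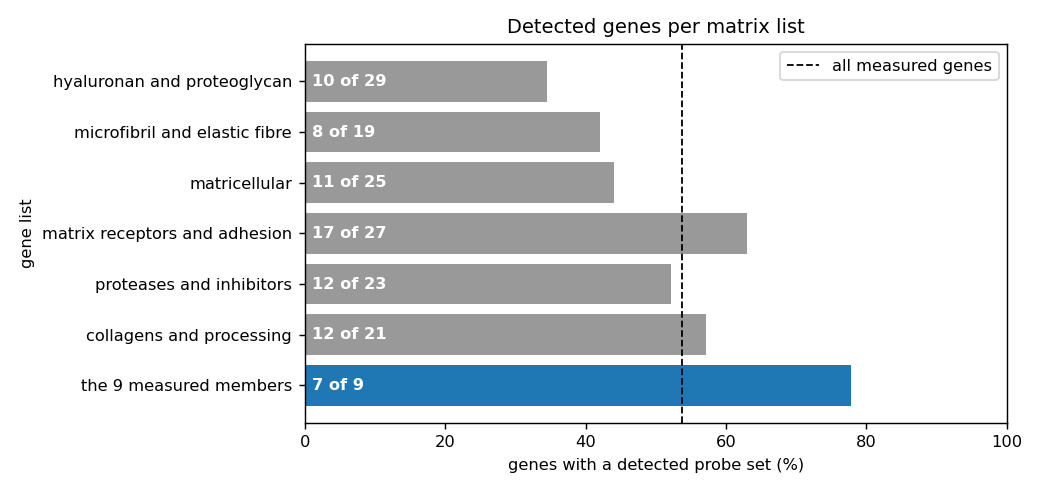
Share of measured genes with a detected probe set (horizontal axis, %) in each of the 6 matrix lists and in the 9 measured interstitial matrix genes (vertical axis), with counts in the bars and a dashed line at the share over all measured genes (53.7%). The share ran from 34.5% for hyaluronan and proteoglycan genes to 77.8% for the 9 genes, which were chosen with earlier results of these data known.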

How the data were processed

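Gene expression was measured on 5 Affymetrix 430A arrays, 1 per wild-type sample. The authors deposited intensity values, 1 linear signal per probe set and array; GCOS, Affymetrix's array software, is named per the submitters' processing notes; its version and settings are not given in the sources. After trimming 2% at each end, the mean signal of each array was 150.1, which fits a common scaling. Of 22690 probe sets, 64 controls were left out; 20380 carried 1 gene, 691 several and 1555 none, and 20351 symbols were updated through Entrez identifiers.

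Signals were floored at 1 and taken to log2. The level of an array was the 95th percentile over 217 probe sets of 165 genes from families such as olfactory receptors, keratin-associated proteins and defensins, 2 of which were themselves called. Casein kinases and interferon receptors, taken in by a wider name pattern in earlier work on these data, were kept out. Detection was a one-sided limma (version 3.58.1, R 4.3.3) intercept fit of the log2 difference from the level (trend and robust on), with Benjamini-Hochberg adjustment over all 22626 probe sets. A gene counted as detected if any probe set was, which favours genes with many probe sets. Variance was tested by an F test against limma's robust trend with a single value of the prior degrees of freedom shared by all probe sets. That choice was made after a first run, with the separate value that the robust fit gives each probe set, had called 0 of 12726 probe sets, since the robust fit lowers this value for the most variable ones. Both tests, as used here, were tested on simulated data. With an SD of 0.4 for every probe set, detection recovered 24% of those with an excess of 0.5 and 100% at 1. The F test recovered 60% of probe sets with the SD raised 3 times and 97% at 6 times. In that simulation all other probe sets had exactly the SD of the trend, whereas real ones scatter around it. These shares may therefore be too high for the real data, where the smallest variance called was 16.6 times the trend. Differences in spread of the sizes simulated, and smaller ones, could be missed.

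The alternatives were the 75th and 99th percentiles, the wider families, quantile normalization, a floor of 16, plain limma, other probe set rules and leaving out each replicate. The members and lists were chosen with earlier results of these data known. Named were all members, the 3 detected genes of each list with the largest excess and up to 3 undetected ones of each matrix list in alphabetical order; other genes are said to be chosen after their values were seen. The number of arrays limits the precision.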

Additional observations from a re-analysis of the deposited data

Results flagged for a closer look

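Of 87 values examined (the 16 interstitial matrix probe sets, the named genes of the lists and the summed marker signals), 8 had 1 sample far from the other 4, by a gap of more than 0.71 of the range in log2 signal; chance alone gives about 1 in 20. None of them was an interstitial matrix probe set. Among detected genes, Mfap2 was low in replicate 3, with 154 against 177 to 182 (gap 0.853 of the range), and Ltbp1 was low in replicate 5, with 204 (0.773). Esrp1, an epithelial splicing factor, was high in replicate 4, with 627 (0.779), and Ccn2 was high in the same sample, with 398 (0.759). The rest were undetected genes with low signals: Emilin1 at 2.42 in replicate 2 (0.779), Eln at 1.41 in replicate 4 (0.758), Itga3 at 3.19 in replicate 3 (0.729) and Col5a3 at 1.86 in replicate 5 (0.722).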

How the results depend on the processing

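The count of 12 detected interstitial matrix probe sets was 10 under the 99th percentile (41.7% of all probe sets detected) and 13 under the 75th (59.5%), 12 without any 1 replicate and 8 with casein kinases and interferon receptors among the background families. That last level (78.2 to 122) called 24.8% of all probe sets and turned the excess negative for 1437218_at of Fn1 (-0.68), 1418678_at of Has2 (-0.61), Tnc (-1.21) and Dcn (-1.27); this excess per probe set was computed after the data were seen. At the 75th percentile the excess of the undetected probe sets turned positive: 0.96 for 1426294_at, 0.23 for 1426295_at and 0.13 for 1421633_a_at of Hapln1, and 0.46 for Fbln2. For 1426294_at it was 0.024 with a floor of 16, and it ran from -0.091 to 0.079 when 1 replicate was left out. The hyaluronan list had 16 detected genes and the red cell markers 8 at the 75th percentile, and the protease list 7 and the cardiac muscle markers 3 at the 99th; the causes were not tested, beyond the level itself. The count of interstitial matrix probe sets with excess variance was 0 in all alternatives run for it. Over all probe sets the F test called 29 with the common prior degrees of freedom, a choice made after the data were seen, and 0 (595 at an unadjusted p under 0.05) with a separate value per probe set. No paired analysis was possible because all samples belong to 1 group.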
